A study of Mus musculus with 10 samples.

Results

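The 10 genes followed here belong to the cellular oxygen response and were measured in cells sorted from mouse melanoma tumours: *Hif1a*, *Epas1*, *Egln1*, *Egln2*, *Egln3*, *Vhl*, *Vegfa*, *Car9*, *Bnip3* and *Adm*. They were found by gene name in the deposited transcript table, where these 10 of 34162 gene names hold 39 of 92214 transcript rows, and the estimated counts of each gene's rows were summed. The comparison was over 4 groups: 3 libraries of metastatic c-Myc-high cells, 3 of metastatic c-Myc-low cells, 2 of primary c-Myc-high cells and 2 of primary c-Myc-low cells. All came from mice of the strain C57BL/6:SV129; primary cells are from skin tumours and metastatic cells from a metastatic lymph node, with no treatment given in the labels. By the labels, c-Myc-high cells are the GFP+ and c-Myc-low cells the GFP- fraction of a flow-cytometry sort of fresh tumours. The promoter that drives GFP was not given in the sources used here. Whether replicates are separate animals is likewise unstated. The p-values therefore measure only the spread between these libraries, which may be partly technical. The study's title concerns AMPK and oxidative stress in c-Myc-positive melanoma cells, and its stated comparison is of primary and metastatic c-Myc-high cells.

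HIF is a transcription factor made of an oxygen-labile alpha subunit, encoded by *Hif1a* or *Epas1*, and a stable partner. When oxygen is plentiful, the prolyl hydroxylases encoded by *Egln1*, *Egln2* and *Egln3* mark the alpha subunit, and the *Vhl* protein, the recognition part of a ubiquitin ligase, sends it for destruction. When oxygen falls, the alpha subunit persists and switches on genes for vessel growth (*Vegfa*, *Adm*), pH control (*Car9*) and mitochondrial removal (*Bnip3*), and also *Egln1* and *Egln3*, which act back on it. Much of this control is on the protein, so RNA levels do not show HIF activity directly. In melanocytes and melanoma, *Hif1a* is also known as a target of the pigment-cell factor MITF.

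HIF binds the short core ACGTG or GCGTG, and the promoters were searched for both, on both strands, as a description of the genes measured here. Promoters of 300 bases (250 before to 50 after the start) from RefSeq's GRCm38.p6 tables matched 9 of the 10 genes, with 11 entries; *Epas1* had none there. The core was present in at least 1 window of 8 of these 9 genes and not in the *Vhl* window. In *Vegfa* it lay in an internal window (chr17:46025114-46025413), and the window at the gene's 5′ end (chr17:46032328-46032627) held 0 matches. The *Hif1a* window does not cover the start, at position 73901375, of the *Hif1a* transcript with the most counts. Counted by promoter entry rather than by gene, the core lay in all of the 11 entries but the *Vhl* window and the 5′ *Vegfa* window. By entry, 43.8% of all 32851 promoters of this length hold the core (ACGTG in 19.6%, GCGTG in 32.4%). The windows of the 9 genes were 49.3% to 86.0% G or C, and promoters of like content were not compared. A match is not evidence of binding, and a palindromic CACGTG counts on both strands. The matches of *Egln3* and *Egln1* are shown because these 2 genes changed between sites, and 1 match is shown for each other gene: the ACGTG nearest the start or, in *Adm*, which has none, the nearest GCGTG. Each line gives 25 bases on the gene's strand, 5′ to 3′, with the match in capitals; CACGT and CACGC are the 2 cores read on the opposite strand.
Egln3, chr12:54204089-54204113, minus strand: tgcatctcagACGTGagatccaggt
Egln1, chr8:124949366-124949390, minus strand: ccggcccgccGCGTGcgcgcggccc
Egln1, chr8:124949308-124949332, minus strand: gccgtggtgtACGTGcagcgcgcgc
Egln2, chr7:27166791-27166815, minus strand: ggccgctgtcACGTGcccagcgggc
Hif1a, chr12:73907787-73907811, plus strand: gctgagagcaACGTGggctggggtg
Vegfa, chr17:46025360-46025384, minus strand: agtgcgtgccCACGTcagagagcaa
Car9, chr4:43506998-43507022, plus strand: atttccgatgCACGTacagcccgtc
Bnip3, chr7:138909599-138909623, minus strand: cacgcgccgcACGTGccacacgctc
Adm, chr7:110627593-110627617, plus strand: caaatctgacCACGCccaccgtccg
The matches begin 229 bases before the start in *Egln3*, 126 and 68 bases before it in *Egln1*, 107 in *Bnip3* and 18 in *Car9*.

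Libraries differed in ways that touch the results. Total estimated counts lay between 1603012 and 6844328, lowest in primary c-Myc-high replicate 2 and next lowest, at 2641865, in metastatic c-Myc-high replicate 3. All 10 genes passed the filter on low counts, among 16805 genes tested. Levels are given as CPM, estimated counts scaled to a common library size after TMM normalisation. By total counts alone, without the TMM factor, 3 counts in a library equal 0.438 to 1.87 CPM, depending on its depth. On the TMM scale of the levels these floors shift with each library's factor. The factor was 0.671 in primary c-Myc-high replicate 2, so the floor of that library is above 1.87 CPM on the TMM scale. Summed over 16 keratinocyte markers, metastatic libraries had 31.0 to 355 CPM and primary libraries 25690 to 90700 CPM. Summed over 10 leukocyte markers, metastatic libraries had 383.5 to 4983 CPM and primary libraries 33.9 to 194 CPM. All 10 pigment cell markers had counts in every library, with sums of 2878 to 20350 CPM in metastatic and 591 to 2823 CPM in primary libraries. *Myc* had 148, 267 and 234 CPM in metastatic c-Myc-high and 101, 230.5 and 316.5 CPM in metastatic c-Myc-low libraries. It had 997 and 104 CPM in primary c-Myc-high and 162 and 318 CPM in primary c-Myc-low libraries. *Myc* RNA thus overlapped between the sorted classes at both sites (log2 fold change 0.60, SE 0.62, edgeR adjusted p = 0.722, over both sites).

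Between the sites, in the mean over both c-Myc classes, the largest difference among the 10 genes was in *Egln3*, an inducible prolyl hydroxylase (chr12:54178981-54203860, minus strand, GRCm38). Metastatic c-Myc-high cells had 42.9, 9.08 and 39.9 CPM and metastatic c-Myc-low cells 17.6, 4.89 and 5.72 CPM of *Egln3*, against 197 and 131 CPM in primary c-Myc-high and 222 and 356 CPM in primary c-Myc-low cells. The highest metastatic library was below the lowest primary one. *Egln3* fell in metastatic cells by 3.68 on the log2 scale (SE 0.61) in the mean over both c-Myc classes, with an edgeR adjusted p of 0.00292. Within c-Myc-low cells *Egln3* fell by 4.94 (SE 0.90, adjusted p = 0.0141), a call that was lost without primary c-Myc-low replicate 2 (adjusted p = 0.0865) or metastatic c-Myc-low replicate 2 (0.0923) or 3 (0.0919). Within c-Myc-high cells the log2 fold change was -2.42 (SE 0.83, adjusted p = 0.107), and the 2 classes were not shown to differ (difference 2.51, SE 1.19, adjusted p = 0.733). By group mean (± SD), metastatic cells had 9.41 ± 7.12 CPM in the c-Myc-low and 30.6 ± 18.7 CPM in the c-Myc-high class (n = 3 each), and primary cells 164 ± 46.8 CPM in the c-Myc-high and 289 ± 94.7 CPM in the c-Myc-low class (n = 2 each). The ranges of the 2 metastatic groups overlapped, and those of the 2 primary groups did not but lay close together, while the gap between the sites was wider.

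Keratinocyte markers moved with *Egln3* between the sites: all 16 were called lower in metastatic cells, with a median log2 fold change of -9.78. Among the primary libraries, c-Myc-low replicate 2 had 356 CPM of *Egln3* and a keratinocyte sum of 25690 CPM, and c-Myc-low replicate 1 had 222 and 42990 CPM. Primary c-Myc-high replicate 1 had 197 and 59830 CPM, and c-Myc-high replicate 2 had 131 and 90700 CPM. In this last sum *Sfn* alone made up 51790 CPM, against 2678 CPM in c-Myc-high replicate 1 and at most 347 CPM in primary c-Myc-low libraries. The order of the sums therefore rests on 1 marker in the shallowest library, and no relation is read from so few libraries. The part of keratinocyte RNA in the *Egln3* result was not tested. In such sorted bulk samples, fewer cells of a type and less RNA per cell cannot be told apart. Over the 10 libraries, the genes whose log2 CPM was most like that of *Egln3* were *Perp*, a desmosome-associated gene on the keratinocyte list (Pearson r = 0.959), and *Fam110c* (r = 0.956), of 16804 genes searched. These points fall into a metastatic and a primary cluster, so r is given as a description.

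*Egln1*, the hydroxylase that sets basal HIF alpha turnover in most cells (chr8:124908587-124949324, minus strand), was the second gene called between sites. Metastatic c-Myc-high cells had 22.9, 31.7 and 23.9 CPM and metastatic c-Myc-low cells 79.99, 53.1 and 35.97 CPM of *Egln1*, against 57.7 and 61.2 CPM in primary c-Myc-high and 177 and 201 CPM in primary c-Myc-low cells. Within each class, every metastatic library was below every primary one. *Egln1* fell by 1.47 on the log2 scale (SE 0.45, adjusted p = 0.0486) over both classes, close to the threshold. The call was lost without any 1 of 6 libraries: metastatic c-Myc-high replicate 1 (adjusted p = 0.0778), metastatic c-Myc-low replicates 1, 2 and 3 (0.057, 0.101 and 0.123), and primary c-Myc-low replicates 1 and 2 (both 0.185). In edgeR neither class alone passed the test, with log2 fold changes of -1.18 in the c-Myc-high class (SE 0.63, adjusted p = 0.249) and of -1.75 in the c-Myc-low class (SE 0.63, adjusted p = 0.195). In the c-Myc-low class other tools called it lower: the adjusted p was 0.028 with DESeq2, 0.00174 with limma-voom and 0.0335 in an edgeR fit of only these groups, beside 4.20%, 9.59% and 6.85% of all genes called lower by each, against 1.74% in the edgeR fit of all groups. From low to high, its group means (± SD) were 26.2 ± 4.86 CPM in metastatic c-Myc-high and 56.4 ± 22.2 CPM in metastatic c-Myc-low cells (n = 3 each), then 59.5 ± 2.43 CPM in primary c-Myc-high and 189 ± 17.1 CPM in primary c-Myc-low cells (n = 2 each). The 2 middle groups overlapped. The genes most like it over the 10 libraries were *Dnajc21* (r = 0.972) and *Heph* (r = 0.949), again as a description.

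*Egln2*, a hydroxylase that is not a typical hypoxia target (chr7:27158658-27166802, minus strand), was on average higher in metastatic cells but did not pass the test. Metastatic c-Myc-high cells had 54.55, 100.5 and 8.31 CPM and metastatic c-Myc-low cells 21.6, 21.6 and 65.8 CPM, against 11.15 and 2.83 CPM in primary c-Myc-high and 19.5 and 16.7 CPM in primary c-Myc-low cells. The groups overlapped in the c-Myc-high class, through metastatic replicate 3, and were apart in the c-Myc-low class. For *Egln2* the log2 fold change over both classes was 1.96 (SE 0.79, adjusted p = 0.117). Leaving out metastatic c-Myc-high replicate 3 gave an adjusted p of 0.0443. The share of the *Egln2* count on protein-coding transcripts was 49.5% in metastatic c-Myc-high replicate 3 against 47.3% and 50.6% in the 2 primary c-Myc-high libraries, and 79.4% to 98.4% in the other 7 libraries.

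The 3 hydroxylases together had a different make-up at the 2 sites when set against each other per length, as shares of their summed RPKM (read counts scaled to transcript length and library). Such shares within a library do not depend on the scaling between libraries. *Egln3* made up 32.2%, 3.51% and 45.1% of the sum in metastatic c-Myc-high and 15.2%, 6.13% and 3.36% in metastatic c-Myc-low libraries, against 69.6% and 69.8% in primary c-Myc-high and 56.8% and 66.0% in primary c-Myc-low libraries. *Egln2* made up 54.8%, 87.2% and 34.5% in metastatic c-Myc-high and 32.5%, 43.4% and 80.7% in metastatic c-Myc-low libraries, against 14.9% and 5.48% in primary c-Myc-high and 8.81% and 5.65% in primary c-Myc-low libraries. Neither share overlapped between the 6 metastatic and the 4 primary libraries. The shares sum all transcripts of a gene, including those of *Egln2* that are not protein-coding. Shares of protein-coding transcripts alone were not tested. The *Egln1* share overlapped, at 9.29% to 52.3% in metastatic and 15.5% to 34.4% in primary libraries. Per length, *Egln2* was the most abundant of the 3 in 3 metastatic libraries, *Egln1* in 2 and *Egln3* in 1, whereas *Egln3* was the most abundant in all 4 primary libraries.

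**Figure D1:**
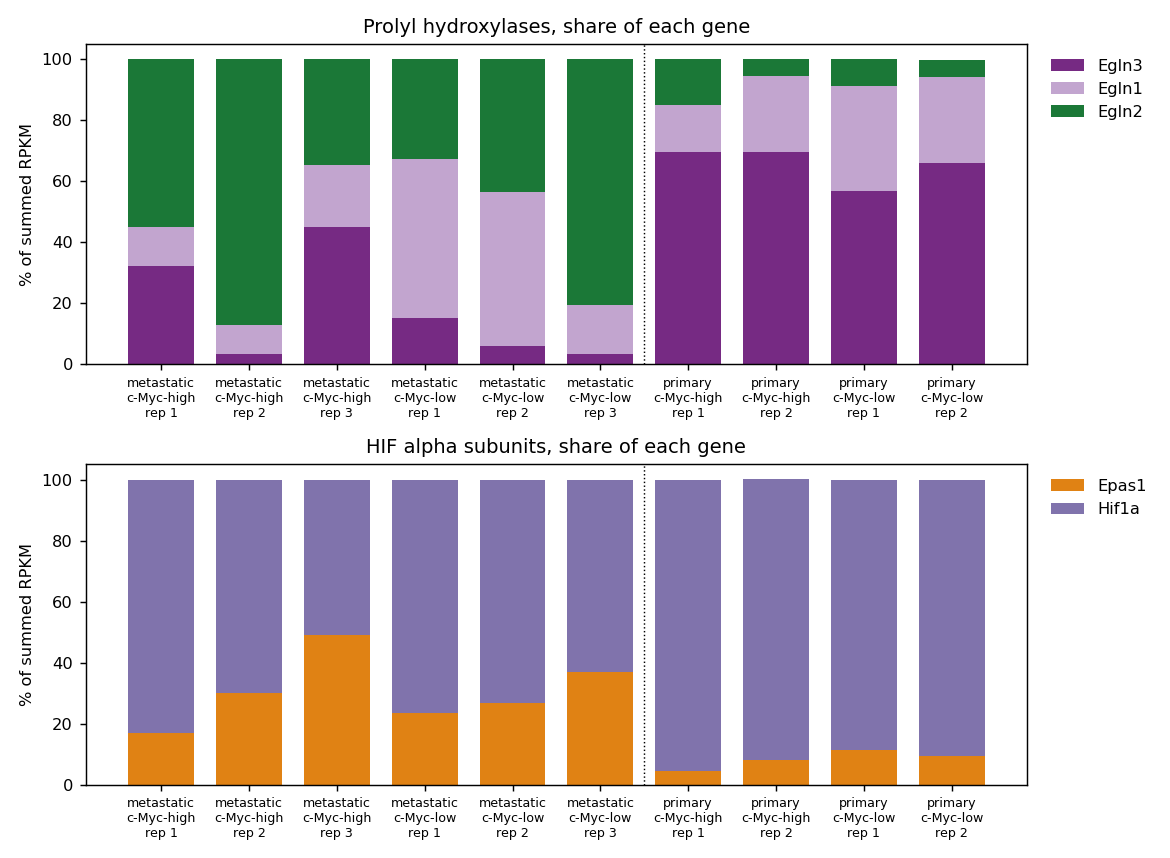
Share of each gene, in percent of the summed RPKM of its family, in each of the 10 libraries, for the prolyl hydroxylases (top) and the HIF alpha subunits (bottom); the dotted line separates metastatic libraries on the left from primary ones on the right. *Egln3* takes at most 45.1% in metastatic libraries and 56.8% to 69.8% in primary ones, and *Epas1* takes 16.8% to 48.9% of the alpha subunits in metastatic libraries and 4.49% to 11.4% in primary ones.

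The alpha subunits also differed in balance. *Hif1a* (chr12:73901375-73947530, plus strand) had 113, 76.5 and 80.1 CPM in metastatic c-Myc-high and 139, 109 and 113 CPM in metastatic c-Myc-low libraries, against 260 and 82.6 CPM in primary c-Myc-high and 216 and 276 CPM in primary c-Myc-low libraries. Its levels overlapped in the c-Myc-high class, where primary replicate 2 was as low as the metastatic libraries. Over both classes *Hif1a* had a log2 fold change of -0.98 (SE 0.46, adjusted p = 0.172). *Epas1* (chr17:86753700-86833410, plus strand), the alpha subunit known from endothelium and also made by macrophages and some tumours, had 42.5, 55.7 and 91.3 CPM in metastatic c-Myc-high and 74.3, 72.2 and 137 CPM in metastatic c-Myc-low libraries. Its primary levels were 19.95 and 10.3 CPM in c-Myc-high and 46.98 and 51.01 CPM in c-Myc-low libraries. Within each class every metastatic library was above every primary one. Its log2 fold change was 1.49 (SE 0.52, unadjusted p = 0.0139, adjusted p = 0.076), which did not pass the threshold.

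Per length, *Epas1* made up 16.8%, 29.9% and 48.9% of the 2 alpha subunits in metastatic c-Myc-high and 23.4%, 26.9% and 36.9% in metastatic c-Myc-low libraries. In primary libraries its share was 4.49% and 8.24% in c-Myc-high and 11.4% and 9.38% in c-Myc-low cells. The shares of the 2 sites did not overlap, and *Hif1a* was the more abundant subunit in all 10 libraries. Endothelial and macrophage markers moved with *Epas1* in part. Among 10 endothelial markers 6 were called higher in metastatic cells, and their summed level was 86.7 to 622 CPM in metastatic libraries and 21.9 to 885 CPM in primary ones. Between 0 and 2 of the 10 endothelial markers were at 0 in metastatic and between 1 and 3 in primary libraries, and the sum of 885 CPM in primary c-Myc-high replicate 1 was nearly all *Flt1*, at 878 CPM. The macrophage sum was 75.7 to 854 CPM in metastatic and 4.54 to 126 CPM in primary libraries, with 1 of 9 tested markers called higher. Their part in the *Epas1* result was not tested. The gene most like *Epas1* over the 10 libraries was *Tlr4* (r = 0.955), a receptor of innate immune cells, and *Flrt3* was among those most like *Hif1a* (r = 0.946).

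*Vhl* (chr6:113623959-113631633, plus strand) was low and uneven. Metastatic c-Myc-high cells had 0.269, 31.7 and 0.582 CPM and metastatic c-Myc-low cells 13.8, 8.65 and 10 CPM, against 72.8 and 4.66 CPM in primary c-Myc-high and 11.4 and 7.12 CPM in primary c-Myc-low cells. The c-Myc-low libraries of the 2 sites overlapped closely, and the c-Myc-high libraries spanned the whole range. Between sites *Vhl* had a log2 fold change of -0.81 (SE 1.10, adjusted p = 0.681), which rested on single libraries: it was 0.54 without primary c-Myc-high replicate 1, and -3.28 with an adjusted p of 0.0416 without metastatic c-Myc-high replicate 2. In primary c-Myc-high replicate 1 only 22.1% of the *Vhl* count lay on the protein-coding transcript.

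Beside *Egln1* and *Egln3*, the HIF targets followed were *Vegfa*, *Car9*, *Bnip3* and *Adm*, and edgeR called none of these 4 between sites, at an unadjusted p under 0.05 either. DESeq2 called none of the first 3 and gave *Adm* no adjusted p. *Vegfa*, the main vessel growth factor (chr17:46016993-46032369, minus strand), had 159.5, 27.75 and 109 CPM in metastatic c-Myc-high and 77.8, 31.2 and 17.3 CPM in metastatic c-Myc-low libraries, against 224 and 139 CPM in primary c-Myc-high and 108 and 93.4 CPM in primary c-Myc-low libraries. In the c-Myc-low class all metastatic libraries were below the primary ones, and in the c-Myc-high class the levels overlapped. The log2 fold change of *Vegfa* was -1.07 (SE 0.59, adjusted p = 0.252). The genes most like it were *Tacc2* (r = 0.938) and *Magi1* (r = 0.923).

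*Car9*, a membrane carbonic anhydrase (chr4:43506966-43513729, plus strand), had 14.9, 0 and 0 CPM in metastatic c-Myc-high, 1.725, 2 and 2.24 CPM in metastatic c-Myc-low, 22.1 and 0 CPM in primary c-Myc-high and 3.67 and 12.3 CPM in primary c-Myc-low libraries. Its levels overlapped in the c-Myc-high class, and in the c-Myc-low class all metastatic libraries were below the primary ones. These levels sum all transcripts of *Car9*, many of them not protein-coding. The share of the count on protein-coding transcripts was 95.1% in metastatic and 10.8% in primary c-Myc-high replicate 1. It was 65.1%, 29.1% and 5.54% in metastatic c-Myc-low and 47.6% and 54.1% in primary c-Myc-low libraries. In the 3 libraries at 0, a count of 0 allows up to 0.693, 1.14 and 1.87 CPM by total counts, without the TMM factor. These limits are for replicates 2 and 3 of the metastatic and replicate 2 of the primary c-Myc-high group, and cover counting error only. On the TMM scale of the levels, the limit is lower in metastatic replicate 2 (TMM factor 1.137). It is higher in metastatic replicate 3 (0.742) and primary replicate 2 (0.671). For *Car9* the log2 fold change between sites was -1.58 (SE 1.39, adjusted p = 0.494), and without primary c-Myc-high replicate 1 it was 2.77. *Bnip3*, a mitophagy receptor (chr7:138890836-138909519, minus strand), had 10.8, 0.851 and 0.518 CPM in metastatic c-Myc-high and 11.1, 4.66 and 2.22 CPM in metastatic c-Myc-low libraries, against 2.41 and 3.265 CPM in primary c-Myc-high and 15.5 and 12.8 CPM in primary c-Myc-low libraries. Its c-Myc-high groups overlapped, and its c-Myc-low groups were apart. The log2 fold change of *Bnip3* was -0.40 (SE 0.98, adjusted p = 0.837).

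*Adm*, the vasodilator peptide adrenomedullin (chr7:110627661-110629820, plus strand), was the most uneven gene. Metastatic c-Myc-high libraries had 21.9, 4.69 and 1708 CPM and metastatic c-Myc-low libraries 35.4, 7.91 and 2.75 CPM, against 1.65 and 533 CPM in primary c-Myc-high and 1.69 and 7.50 CPM in primary c-Myc-low libraries. The 2 high values were in metastatic c-Myc-high replicate 3 and primary c-Myc-high replicate 2, which are the 2 libraries with the lowest total counts. They rested on 3340 and 571 estimated counts. The log2 fold change of *Adm* between sites was 1.44 (SE 1.53, adjusted p = 0.583), and it became -1.285 when metastatic c-Myc-high replicate 3 was left out. Reads of an antisense gene, *Gm28863*, that spans the whole of *Adm* cannot be told apart from it without strand, and the strandedness of the counting is not given in the sources used here. *Hif1a*, *Bnip3* and *Car9* also lie across antisense genes, and *Egln2* shares 11 bases with *Cyp2t4* on the opposite strand. On their own strand, *Hif1a* overlaps *Gm49321* over 9878 bases and *Epas1* overlaps *AC096777.1* over 1379 bases, which strand would not tell apart. *Egln1*, *Egln3*, *Vegfa* and *Vhl* overlap no other annotated gene.

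**Figure D2:**
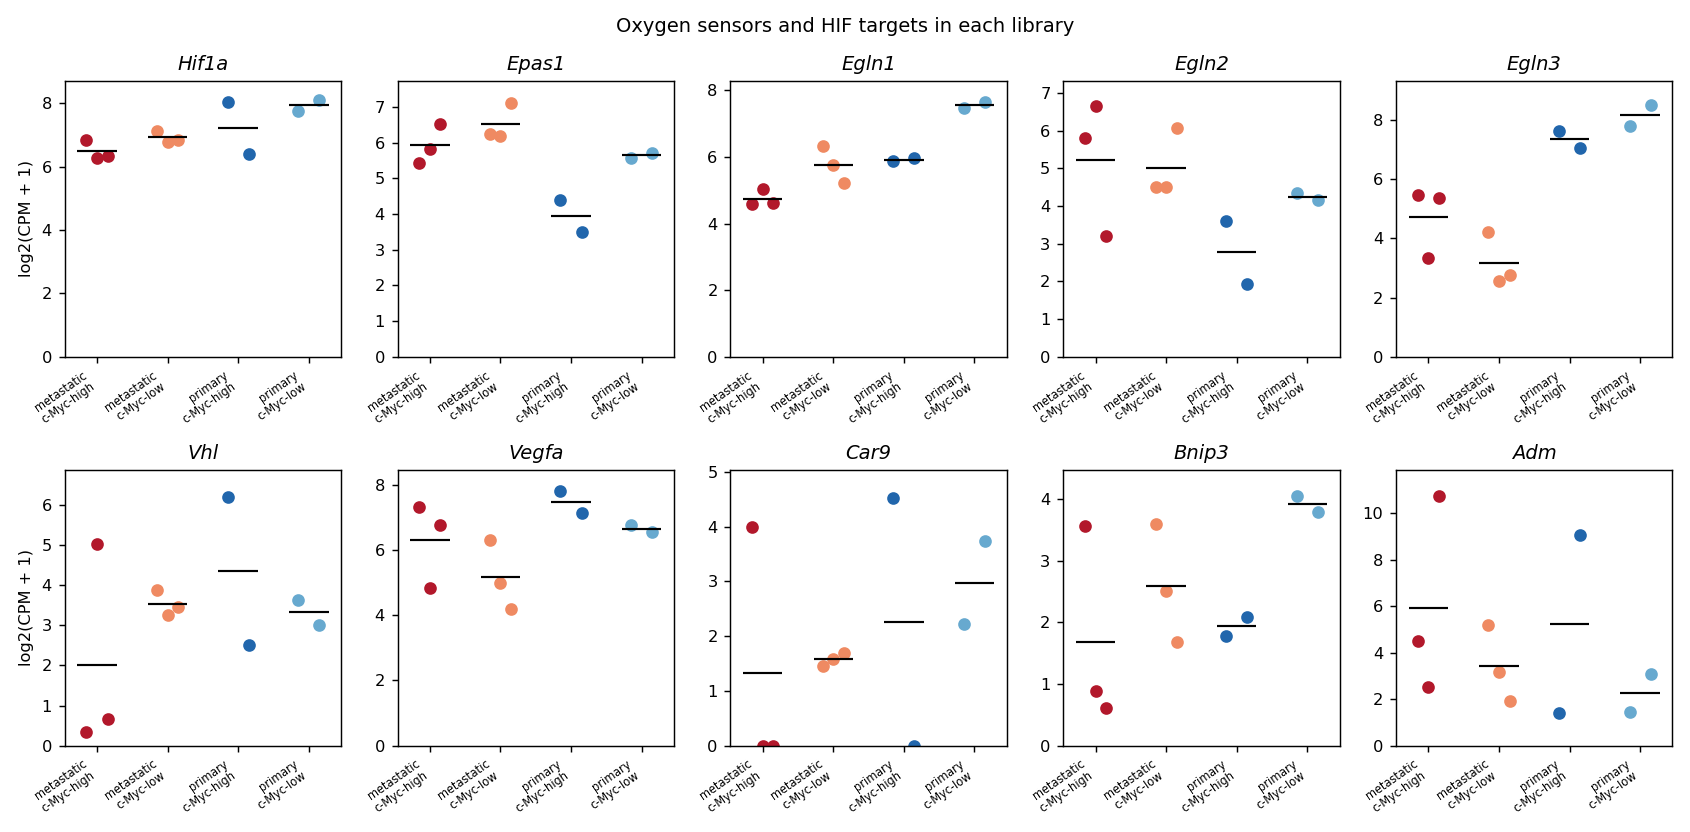
Level of each of the 10 genes as log2(CPM + 1), with 1 point for each library and a line at the mean of the points, in metastatic c-Myc-high (n = 3), metastatic c-Myc-low (n = 3), primary c-Myc-high (n = 2) and primary c-Myc-low cells (n = 2). *Egln3* separates the sites, *Egln1* is highest in primary c-Myc-low cells, and *Adm* is high in 1 library of each c-Myc-high group (1708 and 533 CPM).

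Read together between the sites, 2 of the 10 genes were called, both lower in metastatic cells (*Egln3* and *Egln1*), and 0 were called higher. Over all 16805 genes tested, 5.65% were called lower and 8.13% higher. DESeq2 called 4 of the 10, *Egln3* and *Egln1* lower and *Epas1* and *Egln2* higher, beside 8.92% of all genes lower and 16.4% higher, out of those to which it gave an adjusted p. *Adm* and *Vhl* were given none and so could not be called. In the 8 deepest libraries, a setting chosen after seeing the data, edgeR called *Egln3*, *Egln1* and *Hif1a* lower and *Egln2* higher, beside 8.88% of all genes lower and 13.9% higher. Within c-Myc-high cells 0 of the 10 were called in either direction, beside 2.31% of all genes lower and 1.65% higher. At an unadjusted p under 0.05 in edgeR, 2 of the 10 were higher there (*Egln2* and *Epas1*) and 1 lower (*Egln3*), beside 16.3% and 9.96% of all genes. DESeq2 called these 3 at an adjusted p under 0.05, beside 13.7% of all genes higher and 8.54% lower. Within c-Myc-low cells 1 was called lower (*Egln3*) and 0 higher, beside 1.74% and 0.375% of all genes, and DESeq2 called *Egln3* and *Egln1* lower, beside 4.20% of all genes lower and 6.61% higher. Within both classes at once, the libraries of the 2 sites did not overlap for *Epas1*, higher in metastatic cells, and for *Egln1* and *Egln3*, lower there, beside 8.59% of all genes higher and 6.50% lower. In c-Myc-high cells these were also the only 3 of the 10 without overlap, beside 16.5% of all genes higher and 10.2% lower. In c-Myc-low cells 2 were higher without overlap (*Egln2* and *Epas1*) and 6 lower (*Hif1a*, *Egln1*, *Egln3*, *Vegfa*, *Car9* and *Bnip3*), beside 25.0% and 20.1% of all genes, so that counts of this kind are common with 3 libraries against 2. The median log2 fold change of the 10 genes was -0.90, and that of all genes 0.28.

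Between the c-Myc classes, 0 of the 10 genes were called at either site, in the mean over both sites or in the difference between sites, and edgeR called 0 of all 16805 genes in these comparisons. At an unadjusted p under 0.05, 897 genes (5.34%) were higher and 1263 (7.52%) lower in c-Myc-high cells over both sites, among them *Adm* higher and *Egln1* and *Epas1* lower. DESeq2 called 335 genes higher (2.26%) and 176 lower (1.19%) over both sites, 71 and 15 in metastatic cells, 201 and 205 in primary cells, and 55 and 30 for the difference between sites, with none of the 10 among them. Over both sites it gave *Adm* and *Vhl* no adjusted p, and at each single site it gave *Adm* none. *Egln1* came nearest to a shared pattern: each c-Myc-high library was below each c-Myc-low library of its site. Its log2 fold change was -1.38 (SE 0.46, unadjusted p = 0.0111, adjusted p = 0.307) over both sites, -1.10 (SE 0.58, adjusted p = 1) in metastatic and -1.665 (SE 0.72, adjusted p = 0.42) in primary cells. It was the only one of the 10 that did not overlap between classes at both sites, beside 3.27% of all genes lower and 0.910% higher in this way. At single sites, 0 of the 10 were higher and 1 lower without overlap in metastatic cells (3.28% and 7.65% of all genes), and 1 was higher (*Vegfa*) and 5 lower in primary cells (10.8% and 29.8%). *Epas1* had a log2 fold change of -1.13 (SE 0.50, unadjusted p = 0.0427, adjusted p = 0.37). *Egln3* had one of 0.44 (adjusted p = 0.793) over both sites and 1.695 (SE 0.76, unadjusted p = 0.0465, adjusted p = 1) in metastatic cells, with *Egln3* levels that overlapped. *Adm* had the largest fitted value, 5.55 (SE 1.82, unadjusted p = 0.0102, adjusted p = 0.305). In metastatic cells the value for *Adm* was 5.23 (adjusted p = 1), and it became -0.22 when metastatic c-Myc-high replicate 3 was left out. In primary cells it was 5.88 (adjusted p = 0.434), and -1.51 when primary c-Myc-high replicate 2 was left out. The other 6 genes ranged from -1.39 (*Bnip3*) to 1.04 (*Vhl* and *Vegfa*), with adjusted p-values of 0.491 to 0.874. The median log2 fold change was 0.03 for the 10 genes and -0.11 for all genes.

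**Figure D3:**
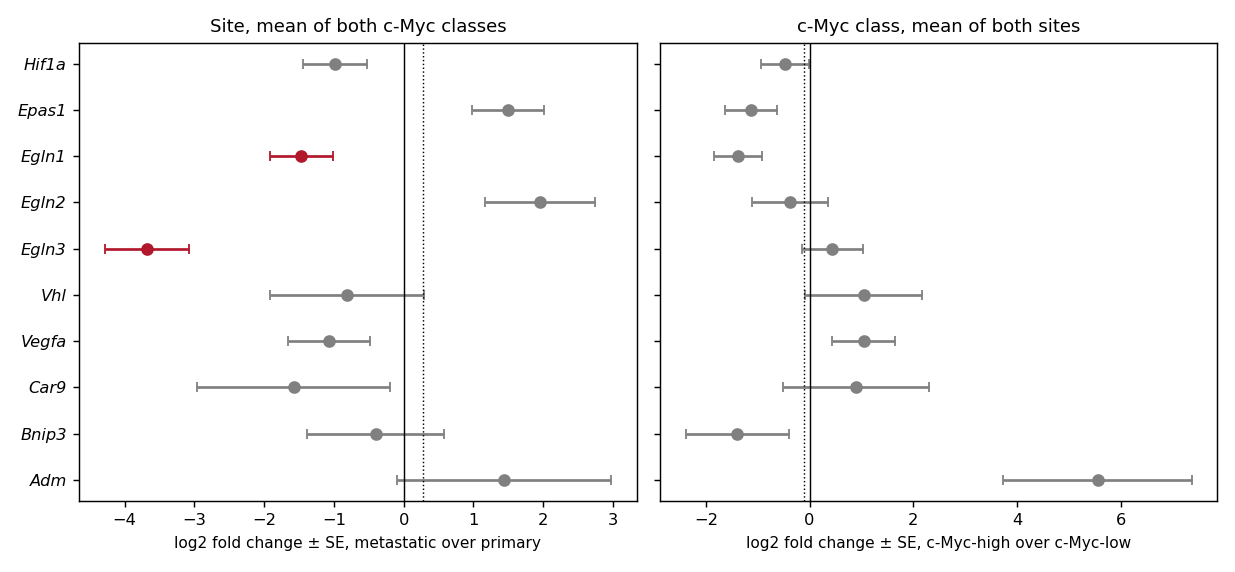
Log2 fold change with its standard error for each of the 10 genes, metastatic over primary (left, mean over both c-Myc classes) and c-Myc-high over c-Myc-low (right, mean over both sites). Red marks genes with an edgeR adjusted p under 0.05, which are *Egln3* and *Egln1* on the left and none on the right, and the dotted line is the median of all genes tested (0.28 on the left, -0.11 on the right).

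Set against each other per length within a group, on a scale of RPKM rescaled to the same sum in each library, *Egln3* ranked ninth of the 10 in metastatic c-Myc-low cells (7.50 ± 6.43, SD, n = 3) and first in primary c-Myc-low cells (176 ± 14.2, SD, n = 2). *Hif1a* ranked first in metastatic c-Myc-low cells (85.7 ± 17.0, SD, n = 3) and second in primary c-Myc-low cells (133 ± 5.16, SD, n = 2). In the metastatic c-Myc-low group *Vegfa* (52.3 ± 30.7), *Egln2* (47.6 ± 29.1), *Epas1* (34.4 ± 5.33) and *Egln1* (34.0 ± 17.6) followed and overlapped in spread (SD, n = 3). In the c-Myc-high groups the spread was as large as the differences between ranks for *Adm*, *Vegfa* and *Egln2*, and their order is not read.

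Other genes of the pathway were taken in 5 lists, and the calls between sites named here were chosen after their values were seen. The counts of these lists stand beside 8.13% of all genes called higher and 5.65% lower by edgeR. Of the machinery beyond the 10 genes, 16 of 17 were tested, 1 was called higher in metastatic cells and 0 lower. This was *Arnt2*, a HIF partner subunit known from neurons, at 21.0 to 88.6 CPM in metastatic and 2.48 to 7.88 CPM in primary libraries (log2 fold change 2.98, adjusted p = 0.013). Of vessel and tone genes, 10 of 12 were tested, 1 was called higher and 0 lower: *Kdr*, the main *Vegfa* receptor and a gene of the endothelial list, at 9.40 to 130 CPM in metastatic and 0.0557 to 18.7 CPM in primary libraries (adjusted p = 0.0244). The medians of these lists were -0.03 and 0.01, beside 0.28 for all genes.

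Of 22 genes of pH control and glucose metabolism, all tested, 1 was called higher and 3 lower, beside 8.13% and 5.65% of all genes, with a median of -0.71. *Car12*, a carbonic anhydrase like *Car9*, had 9.60 to 161 CPM in metastatic c-Myc-high and 2.20 to 20.2 CPM in metastatic c-Myc-low libraries, against 122 and 1077 CPM in primary c-Myc-high and 736 and 1066 CPM in primary c-Myc-low libraries. The decrease of *Car12* was significant in edgeR (log2 fold change -4.73, adjusted p = 0.00879), and DESeq2 gave it no adjusted p. The glucose transporter *Slc2a1* had 60.8 to 106 CPM in metastatic and 194 to 531 CPM in primary libraries and fell by 2.16 (adjusted p = 0.011). Keratinocyte markers moved with *Car12* and *Slc2a1*, with sums of 31.0 to 355 CPM in metastatic and 25690 to 90700 CPM in primary libraries and all 16 called lower, and their part was not tested. The transporter *Slc2a3*, known from neurons and leukocytes, was called higher, at 1.08 to 73.4 CPM in metastatic libraries and at most 2.74 CPM in primary ones (adjusted p = 0.0277). The leukocyte sums given above moved with it, and their part was not tested.

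Of genes of mitophagy, stress and feedback, 14 of 15 were tested, 1 was called higher and 1 lower, beside the same 8.13% and 5.65%, with a median of -0.02. *Fam162a*, a mitochondrial target of HIF, had 14.99, 19.4 and 107.6 CPM in metastatic c-Myc-high and 11.6 to 18.8 CPM in metastatic c-Myc-low libraries, against 232 and 490 CPM in primary c-Myc-high and 138 and 136 CPM in primary c-Myc-low libraries, and fell by 3.11 (adjusted p = 0.00781). The keratinocyte markers moved with *Fam162a* too. *Bhlhe41*, a transcriptional repressor, was called higher (log2 fold change 4.12, adjusted p = 0.0188). Of matrix and iron genes, 12 of 13 were tested, 1 was called higher and 1 lower, again beside 8.13% and 5.65%, with a median of -0.23. *Cxcr4*, the chemokine receptor of leukocytes and migrating tumour cells, was called higher, at 19.8 to 118 CPM in metastatic libraries and 0 to 0.933 CPM in primary ones (adjusted p = 0.000699). The leukocyte sums moved with *Cxcr4*, at 383.5 to 4983 CPM in metastatic and 33.9 to 194 CPM in primary libraries. Of 10 leukocyte markers 8 were called higher, and their part in *Cxcr4* was not tested. *Igfbp3*, a secreted growth factor binder, fell by 2.02 (adjusted p = 0.0197), as the keratinocyte markers did; their part in *Fam162a* and *Igfbp3* was not tested. The calls of *Cxcr4*, *Car12* and *Fam162a* held in edgeR without any 1 library. Those of the other 6 named here did not, and without primary c-Myc-low replicate 1 the adjusted p was 0.105 for *Arnt2*, 0.146 for *Kdr*, 0.0683 for *Slc2a1*, 0.137 for *Slc2a3*, 0.121 for *Bhlhe41* and 0.113 for *Igfbp3*.

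**Figure D4:**
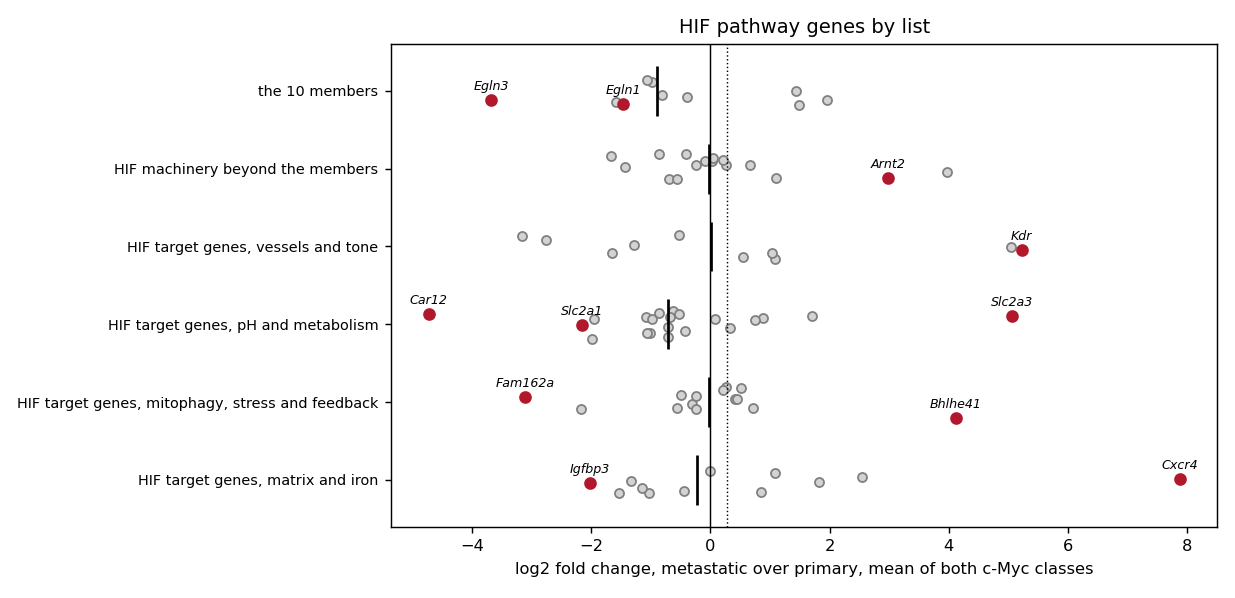
Log2 fold change of metastatic over primary cells, mean over both c-Myc classes, for the 10 genes and 5 further lists of the HIF pathway, with 1 point per gene shown. Red named points have an edgeR adjusted p under 0.05, black bars are medians over all tested genes of a list (-0.90 for the 10 genes) and the dotted line is the median of all genes, 0.28. Called genes lie on both sides of 0.

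Between the c-Myc classes edgeR called 0 of the 74 tested genes of these lists. DESeq2 called 2 of them over both sites, both higher in c-Myc-high cells, *Tceb2* (log2 fold change 2.42, adjusted p = 0.0107) and *Kdr* (3.86, adjusted p = 0.0416), and the same 2 in primary cells alone, beside 2.26% of all genes higher and 1.19% lower over both sites. Over both sites neither was called in edgeR's other settings, with limma-voom or on RPKM. The 3 with the lowest p of each list are given as edgeR values over both sites, none with an edgeR adjusted p below 0.305. In the machinery, the log2 fold change was 2.23 for *Tceb2*, an elongin subunit that joins the *Vhl* protein to its ligase, 1.28 for *Hif1an*, the asparagine hydroxylase that blocks HIF's co-activators, and -0.85 for *Cul2*, the scaffold of that ligase. Among vessel genes it was 3.42 for *Kdr*, -2.51 for the vasoconstrictor *Edn1* and -1.60 for *Pdgfb*. Among metabolic genes it was -1.37 for *Pdk1*, a kinase that restrains pyruvate oxidation, 0.998 for *Ldha*, which makes lactate, and 1.16 for the glycolytic enzyme *Tpi1*. Among stress genes it was 1.56 for *Fam162a*, -1.02 for the histone demethylase *Kdm3a* and -0.96 for *Bnip3l*, a relative of *Bnip3*. Among matrix genes it was -2.11 for *Stc2* and 1.30 for *Stc1*, both stanniocalcins, and 1.23 for the collagen lysyl hydroxylase *Plod1*.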

How the data were processed

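RNA of 10 libraries in 4 groups was measured by sequencing after amplification (Ovation kits, Illumina HiSeq), per the labels' protocols. The authors deposited estimated counts per transcript, not scaled between libraries, and RPKM, scaled to length and library by the authors. Bowtie2, limma and mm10 are named in the submitters' processing notes; the counting program, annotation release and strandedness were not given in the sources used here. Deposited estimated counts were summed by gene name and rounded; RPKM were summed likewise.

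Counts were scaled by TMM, filtered by edgeR's default (16805 genes kept) and fitted with edgeR 4.0.16 (R 4.3.3), with robust quasi-likelihood tests over all 4 groups, no covariate, and Benjamini-Hochberg adjustment over all genes; an adjusted p under 0.05 made a call. Standard errors come from the F statistic. Script steps were tested on simulated data. Alternatives used limma 3.58.1 and DESeq2 1.42.0, other scalings and filters, RPKM with pseudocounts of 1 and 0.1, and each library left out. The genes followed, the lists and the markers were chosen with earlier results of these data known. By rule the 10 genes, the 3 genes with the lowest p per list in the c-Myc comparison, and the 2 genes most alike to each of the 10 with at least 10 counts in every library were named, and predicted genes were not; some single genes are not reported here. Positions are from GENCODE's GRCm38 annotation (the mm10 assembly), which held 95.7% of the deposited transcripts. The chi-square of counts per degree of freedom between replicates lay between 48.4 and 227, so no library copied another. Intervals and floors cover counting error only. A planned search of protein sequences was not made here.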

Additional observations from a re-analysis of the deposited data

How the results depend on the processing

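Of the genes called, *Egln3* between sites over both classes was called under all 21 alternatives, with log2 fold changes of -4.21 to -2.63. *Egln1* kept its sign under all 21 and its call under 9 of 21 (adjusted p 0.00202 to 0.44). The main count of 2 genes called between sites was 1 with the leading transcript for each gene, limma-voom, RPKM with either pseudocount or no filter on low counts, and 4 with DESeq2, which added *Epas1* and *Egln2* (16.4% of all genes higher and 8.92% lower). The count is not given for the 8 deepest libraries, a setting chosen after seeing the data that leaves 1 primary c-Myc-high library. Leaving out 1 library gave 1 to 3. In c-Myc-high cells the count of 0 was 3 with DESeq2 (13.7% and 8.54%) and 0 without any 1 library. In c-Myc-low cells the count of 1 was 2 with DESeq2 (6.61% and 4.20%), 4 with limma-voom (13.9% and 9.59%), 2 in a fit of only these groups (7.12% and 6.85%) and 0 to 1 without 1 library. Over all genes between sites the 1367 called higher ranged from 209 to 2590 and the 949 lower from 452 to 1630 over the alternatives, the 278 and 389 in c-Myc-high cells from 0 to 2038 and 71 to 1278, and the 63 and 292 in c-Myc-low cells from 0 to 2333 and 123 to 1611. Between c-Myc classes and in the difference between sites, 0 of the 10 genes were called under every alternative run. Of these, DESeq2 gave *Adm* and *Vhl* no adjusted p over both sites, and *Adm* none at each single site. RLE scaling moved the median of all genes by 0.14 between c-Myc classes, DESeq2 by 0.19, and library sizes without *Lars2*, *Gm13340* and *Gm20594* by -0.12 between sites, and no sign of a value given for the 10 genes turned under these 3 scalings.

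Signs turned in comparisons that edgeR did not call in its main fit, and the cause was not tested. Among them, DESeq2 called *Kdr* between c-Myc classes over both sites (3.86, adjusted p = 0.0416). Between sites, edgeR called *Vhl* without metastatic c-Myc-high replicate 2 (-3.28, adjusted p = 0.0416). Between c-Myc classes over both sites, *Car9* was -1.80 with the leading transcript, -0.26 with limma-voom and -0.83 with RPKM and a pseudocount of 0.1, and -3.54 to 1.46 without 1 library. With RPKM and pseudocounts of 1 and 0.1, *Egln3* was -0.53 and -0.44 and *Kdr* -0.14 and -0.037. With a pseudocount of 0.1, *Plod1* was -0.067 and *Vhl* -0.22. Without 1 library *Vhl* ranged from -1.29 to 1.44 and *Egln2* from -0.98 to 0.00046. In the 8 deepest libraries *Adm* was -0.84, *Egln2* 0.15 and *Hif1an* -0.24, and *Adm* was -0.16 in metastatic and -1.52 in primary cells. Without 1 library *Adm* ranged from -0.22 to 6.90 in metastatic and -1.51 to 7.27 in primary cells. Between sites, *Vhl* was 0.17 with the leading transcript and -3.28 to 0.54 without 1 library, *Adm* -1.285 to 5.10, *Car9* -5.40 to 2.77, and *Bnip3* 0.021 in the 8 deepest libraries.

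Replicate numbers recur in the groups, but libraries of the same number did not all deviate together (r = -0.305 to 0.153 over 13 pairs, both pairs of 2 such groups of 2 being fixed to the same r), and the sources used here tie no number to an animal, so the numbers were not taken to pair the libraries. With a replicate block 513 genes were called higher and 452 lower between sites, and 1 of the 10 (*Egln3*); *Egln1* had an adjusted p of 0.197, *Car9* between classes was -1.80 and *Adm* between sites -0.44.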
